A study of Mus musculus with 6 samples.

Results

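Insulin signalling from the receptor to Tbc1d4 was followed through 9 genes of the pathway in 3T3-L1 adipocytes that did or did not express uncoupling protein 1 (UCP1). Members were found as the array probes whose platform annotation gives exactly 1 gene symbol, equal to that of a member. By that rule 5 of the 9 genes were measured, on 7 of the 36227 probes of the array: Insr and Pik3r1 on 2 probes each, and Irs1, Akt1 and Foxo1 on 1 probe each. Akt2 and Gsk3b were annotated only on probes that also name another gene, and Irs2 and Tbc1d4 on no probe, so these 4 were left out. The 5 measured genes are among 18069 genes with a probe of their own symbol, of which 18014 were tested.

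The 3T3-L1 line is a mouse preadipocyte line that accumulates lipid when given an adipogenic mixture. Cells of both groups were grown to confluence, differentiated, and taken 10 days later. Their total RNA was the starting material for one-colour CodeLink mouse whole genome arrays, with biotin as the label. The control group has 3 arrays, from cells with the Tet-off plasmid alone. The UCP1 group has 3 arrays, from cells that express UCP1, a carrier of the inner mitochondrial membrane through which protons flow back without driving ATP synthesis. Groups follow the source description of each array. The titles of the UCP1 arrays end in a number that could be taken for a replicate or for part of a protein's name, and it was read as a replicate. The labels leave unsaid whether the UCP1 cells also carry the Tet-off plasmid, how many clones were used and whether each array had its own culture. The p-values therefore speak of array-to-array spread alone, part or all of which may be technical.

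When insulin binds its receptor, the receptor phosphorylates docking proteins of the Irs family, which recruit phosphatidylinositol 3-kinase (PI3 kinase) through its regulatory subunit. The lipid made by that kinase brings Akt to the membrane, where the kinase Pdpk1 activates it. Akt then phosphorylates Foxo1, which leaves the nucleus, Gsk3, which stops restraining glycogen synthase, and Tbc1d4, which releases the Rab proteins that carry the glucose transporter Glut4 to the cell surface. In adipocytes this route sets glucose uptake and the restraint of lipolysis. Most of that regulation runs through phosphorylation, which an mRNA array does not measure.

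The forkhead factor Foxo1 is itself a member, so the promoters of the members were searched for the letters of forkhead-type sites. RefSeq promoters of GRCm38.p6, each with 250 bases before and 50 after a transcription start, were found for 8 of the 9 members (13 promoters, none for Insr). The forkhead core GTAAACA, on either strand, was present in 1 of these 13 promoters, of Akt1, against 3.65% of all 32851 promoters. The core of the insulin response element, CAAAACA on either strand, was present in 2, of Irs1 and Irs2, against 6.28% of all promoters. Both of these also held the E-box CACGTG, which 7.15% of promoters hold. The stretches below lie before the start, are written 5′ to 3′ on the gene's strand, and are shown because they hold all of these matches, in capitals.
Irs1 (chr1:82291450-82291569, minus strand): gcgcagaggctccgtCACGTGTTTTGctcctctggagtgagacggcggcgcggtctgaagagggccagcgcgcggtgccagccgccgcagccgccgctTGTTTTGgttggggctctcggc
Irs2 (chr8:11008945-11008988, minus strand): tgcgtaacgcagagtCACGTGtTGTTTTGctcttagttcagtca
Akt1 (chr12:112675024-112675060, minus strand): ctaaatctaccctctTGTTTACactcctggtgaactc
In Irs1 the E-box and the first response element core overlap, and in Irs2 they are 1 base apart. A match of letters is a description of the sequence and not a binding site.

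The labels were first checked on Ucp1, which read 0.222, 0.232 and 0.278 on the control arrays and 2.34, 2.02 and 1.54 on the UCP1 arrays (limma, adjusted p = 0.00013). Intensities are relative values, and the 6 array medians were nearly equal. The brightest percent of probes began at 255 to 279 on the control arrays and at 185 to 225 on the UCP1 arrays. This level was thus lower on every UCP1 array, but the highest single reading was not. That reading was 943, 932 and 941 on the control arrays and 950, 921 and 683 on the UCP1 arrays. The adipocyte markers Adipoq, Fabp4 and Lpl read between 524 and 950 on all 6 arrays, and 0 of 9 measured adipocyte markers passed the threshold of an adjusted p of 0.05 (limma), with 2 at an unadjusted p under 0.05. Of these 9, 8 lay below 0, with a median of -0.12 on the log2 scale, against 60.1% and -0.08 over all genes. Their differences ran from -0.86 to 0.30. With 2 other scalings described below, quantile and cyclic loess normalization, 2 of the 9 lay below 0, with medians of 0.09 and 0.22. Lipe lay below the array median, and the summed intensity was 3420 to 3927 in controls and 2815 to 3886 in UCP1. Of 9 preadipocyte and fibroblast markers, Pdgfra and Thy1 rose and Acta2 fell, with a summed intensity of 841 to 1037 in controls and 781 to 1010 in UCP1. A dimmer probe of Dlk1 was also called higher, at 1.08 (limma, adjusted p = 0.00526), while a dimmer probe of Pdgfra was at 0.16 and not called. Of 5 leukocyte markers Lyz2 rose, by 1.48 on the log2 scale, while Adgre1, Ptprc and Itgam lay below the array median, and the summed intensity was 11.0 to 16.2 in controls and 13.8 to 14.9 in UCP1. Of 6 endothelial and 8 muscle markers 0 passed with limma, 0 and 1 had an unadjusted p under 0.05, and 6 and 7 lay below the array median. The part of these markers in the results was not tested. In RNA from a whole culture, fewer cells of a type and less RNA per cell cannot be told apart.

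In the deposited scaling none of the 7 member probes differed between UCP1 and control beyond the spread between arrays. With limma 0 of 7 passed an adjusted p of 0.05, and 0 of 7 had an unadjusted p under 0.05. Among all 36116 probes tested 2.83% passed, 0.8% higher and 2.03% lower in UCP1, and 17.1% had an unadjusted p under 0.05. The 3 UCP1 readings overlapped the 3 control readings at each of the 7 probes, whereas at 21.9% of all probes the groups did not overlap. The largest difference among the 7 was -0.31 on the log2 scale, 4 were above 0 and 3 below, and their adjusted p-values ran from 0.559 to 0.956. Their median absolute difference was 0.17, against 0.26 over all probes tested and 0.19 over the brighter probes (median level or above), where 5 of the 7 lie.

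**Figure D1:**
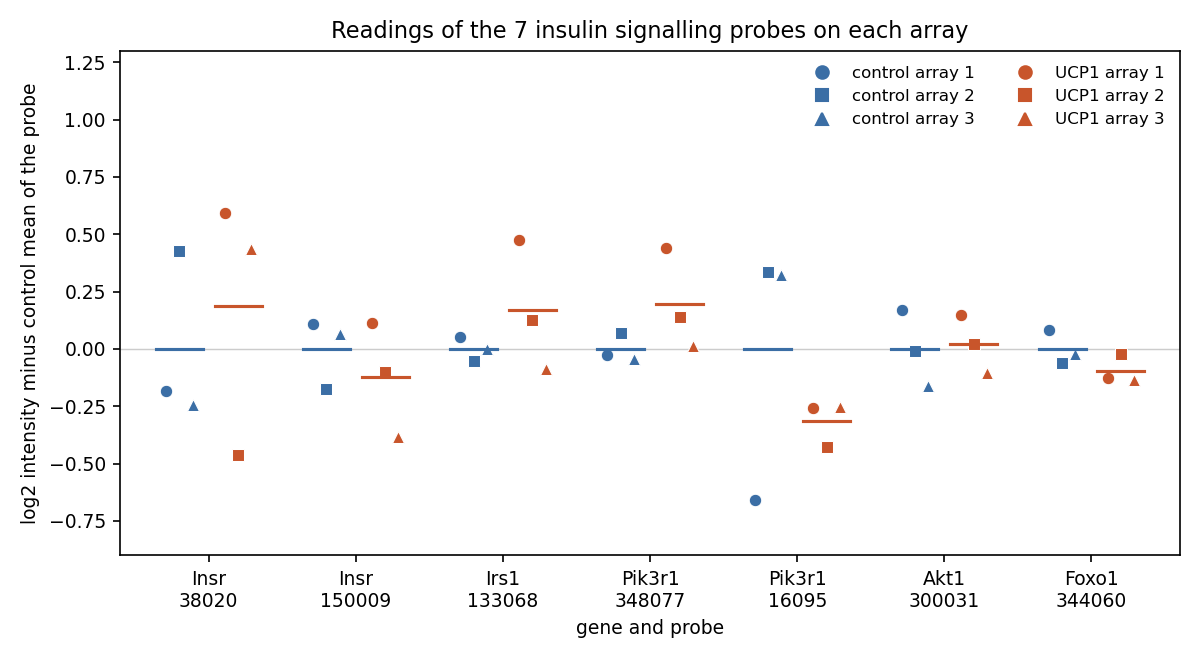
Log2 intensity of each member probe on each of the 6 arrays, minus the mean of that probe over the 3 control arrays; horizontal bars mark group means (n = 3). The groups overlap at each of the 7 probes, and UCP1 array 1 gives the highest reading of Irs1 and of Pik3r1 probe 348077.

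Insr encodes the insulin receptor. Its brighter probe, 38020, read 6.09, 9.28 and 5.84 in controls and 10.4, 5.02 and 9.33 in UCP1. The UCP1 arrays held both the highest and the lowest of the 6 readings, and control 2 stood with UCP1 arrays 1 and 3. The difference was 0.19 ± 0.250 (SE, n = 3 per group) on the log2 scale, a 1.14-fold ratio with a 95% confidence interval from 0.780 to 1.66 (limma, adjusted p = 0.756). The spread within groups was wide, since 98.4% of the brighter probes had a smaller residual SD. The interval does not exclude a rise of 1.66-fold. Without UCP1 array 1 the difference was -0.01, and without UCP1 array 2 it was 0.51.

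The other Insr probe, 150009, lay near the array median and read 1.13, 0.933 and 1.10 in controls and 1.14, 0.981 and 0.806 in UCP1. Its difference was -0.12 ± 0.194 (SE; limma, adjusted p = 0.797) in log2 units, and 0.01 without UCP1 array 3. The 2 Insr probes pointed in opposite directions and did not rise and fall together across arrays. Within an array, 38020 exceeded 150009 by 2.42, 3.31 and 2.41 on the log2 scale in controls and by 3.19, 2.35 and 3.53 in UCP1. Igf1r, the related receptor for insulin-like growth factors, also had 2 probes of opposite sign, at 0.09 ± 0.114 (SE) on the brighter and -0.31 on the other.

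Irs1, the docking protein that carries the signal from the receptor to PI3 kinase, read 167, 155 and 160 in controls and 223, 175 and 151 in UCP1. UCP1 arrays 1 and 2 lay above every control and UCP1 array 3 lay below them all. The difference was 0.17 ± 0.177 (SE) on the log2 scale, 1.13-fold with an interval from 0.862 to 1.47 (limma, adjusted p = 0.682), and 0.02 without UCP1 array 1. The relatives Irs3 and Irs4 were dim, with readings of at most 0.267 and 0.349. The adaptor Gab1 was measured at -0.49 ± 0.233 (SE), and Ptpn11, a phosphatase that docks on Irs proteins, at -0.75 ± 0.226 (limma, adjusted p = 0.102). The docking protein Dok1 went the other way, at 0.29 ± 0.116 (limma, adjusted p = 0.223). At Ptpn11 every UCP1 reading was below every control, and at 25.2% of all genes the groups did not overlap.

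Pik3r1 encodes the p85 alpha regulatory subunit of PI3 kinase. Its brighter probe, 348077, read 85.4, 91.3 and 84.4 in controls and 118, 95.7 and 87.8 in UCP1. UCP1 arrays 1 and 2 lay above every control, while UCP1 array 3 lay within the control range. The difference was 0.20 ± 0.150 (SE), 1.15-fold with an interval from 0.914 to 1.44 (limma, adjusted p = 0.559), and 0.08 without UCP1 array 1. The other Pik3r1 probe, 16095, was below the median of every array and went the opposite way. It read 0.518, 1.03 and 1.02 in controls and 0.684, 0.607 and 0.686 in UCP1, a log2 difference of -0.31 ± 0.275 (SE; limma, adjusted p = 0.622). Control 1 was the lowest of the 6 and controls 2 and 3 the highest. The difference was -0.64 without control 1, -0.15 without control 2 and -0.15 without control 3.

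Of the other class I PI3 kinase subunits, 5 were looked up, and these did not pass either. The regulatory subunit Pik3r2 was measured at -0.70 ± 0.260 (SE) with UCP1 array 2 inside the control range and an adjusted p of 0.178, Pik3r3 at -0.14 ± 0.112, and the catalytic subunits Pik3ca at -0.08 ± 0.121, Pik3cb at -0.08 ± 0.198 and Pik3cd at -0.28 ± 0.615. Chosen as the member probe with the largest difference, Pik3r1 16095 was most closely followed over the 6 arrays by Sec61a2, Prpf6 and Erdr1 (Pearson's r = 0.985, 0.984 and 0.968), out of 12045 probes with 1 symbol at or above the median level. The highest r of so many over 6 arrays is a description and shows no relation. These 3 differed between groups by -0.12, -0.07 and -0.16 on the log2 scale.

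Akt1, the kinase that receives the signal from PI3 kinase, had nearly the same readings in both groups. Its probe read 45.4, 40.2 and 36.2 in controls and 44.8, 41.0 and 37.6 in UCP1. All 3 UCP1 readings lay inside the control range. The difference was 0.02 ± 0.131 (SE), 1.01-fold with an interval from 0.832 to 1.24 (limma, adjusted p = 0.956), and it ran from -0.06 to 0.11 as each array was left out in turn.

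Foxo1, the forkhead factor that Akt keeps out of the nucleus, read 38.5, 34.9 and 35.9 in controls and 33.3, 35.8 and 33.1 in UCP1. UCP1 arrays 1 and 3 lay below every control and UCP1 array 2 lay among them. The difference was -0.10 ± 0.114 (SE), 0.936-fold with an interval from 0.788 to 1.11 (limma, adjusted p = 0.723). Its readings varied little within groups, with only 3.69% of the brighter probes having a smaller residual SD. The relatives Foxo3 and Foxo4 were dim, at most 0.348 and 0.498, and were measured at -1.05 ± 0.611 (SE) and 0.10 ± 0.514.

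The calls for Pik3r1 348077 and Irs1 depended on how the arrays were scaled. Quantile normalization gives all arrays the same distribution of values, and cyclic loess removes intensity-dependent shifts between arrays. Both moved bright readings on control and UCP1 arrays, but unequally. In the deposited scaling Pik3r1 348077 read 6.42, 6.51 and 6.40 on the log2 scale in controls and 6.88, 6.58 and 6.46 in UCP1. After quantile normalization Pik3r1 348077 read 6.24, 6.42 and 6.30 on the log2 scale in controls and 6.86, 6.75 and 6.74 in UCP1. It then stood 0.47 ± 0.085 (SE) higher in UCP1 (limma, adjusted p = 0.0237), and 0.41 ± 0.0902 with cyclic loess (adjusted p = 0.0466). The rise after quantile normalization was 0.43 without UCP1 array 1 (adjusted p = 0.0493), and no member passed without UCP1 array 3.

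Irs1 moved in the same way. After quantile normalization it read 7.17, 7.20 and 7.21 in controls and 7.87, 7.39 and 7.61 in UCP1, a difference of 0.43 ± 0.120 (SE) that did not pass (limma, adjusted p = 0.0986). With cyclic loess the difference was 0.42 ± 0.092 and passed (adjusted p = 0.0475). Akt1 was measured at 0.19 under both scalings (adjusted p = 0.322 and 0.323), and Foxo1 turned from -0.10 to 0.06 and 0.07 without passing. Insr 38020 was at 0.28 under both and did not pass (limma, adjusted p = 0.633 and 0.628). Insr 150009 and Pik3r1 16095, both near or below the array median, kept about the same differences, at -0.13 and -0.35 after quantile normalization. The median over all genes went from -0.08 to 0.01 with quantile normalization. Over all probes, 1013 of 36116 were called with quantile normalization and 979 of 36062 with cyclic loess, against 1021 in the deposited scaling. The share of all called probes that were higher in UCP1 went from 28.3% to 56.0%, and to 52.9% with cyclic loess.

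**Figure D2:**
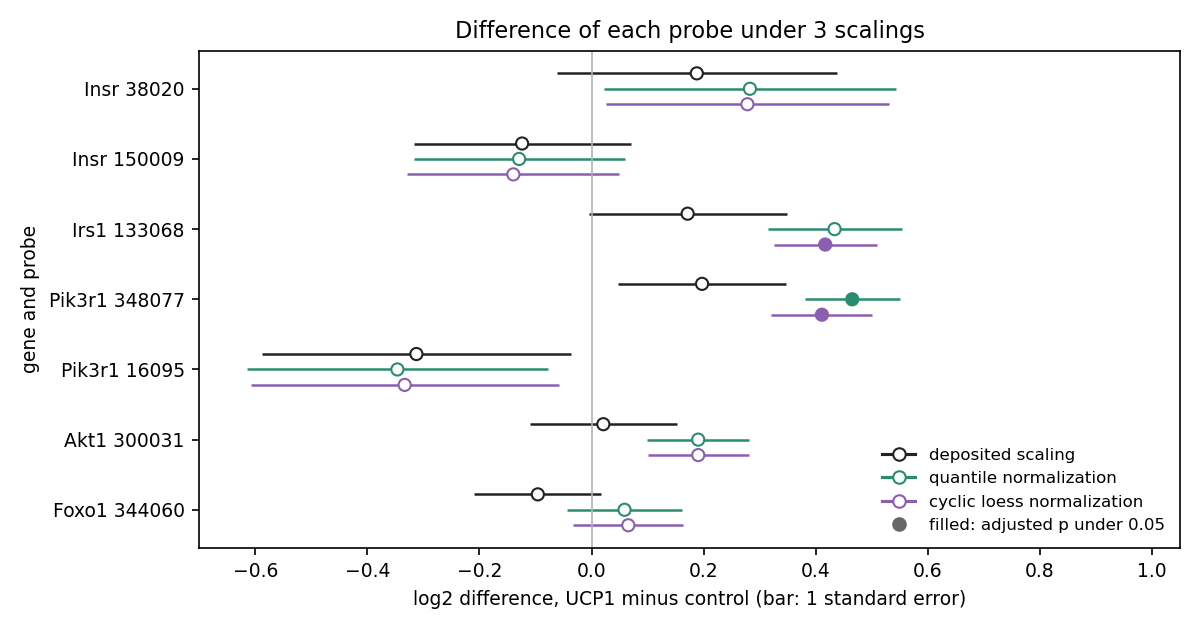
Log2 difference between UCP1 and control for each member probe in the deposited scaling and after quantile or cyclic loess normalization; bars are 1 standard error (3 arrays per group). No probe passes in the deposited scaling, Pik3r1 348077 passes under both others, at 0.47 and 0.41, and Irs1 passes with cyclic loess, at 0.42.

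Around these members, 128 further genes of the pathway were listed by role, of which 108 were measured, each on its brightest probe. The lists were chosen with earlier results of these data known, so their shares of calls are a description and not a test. Of these 108, 4 rose and 12 fell (limma), that is 14.8%, against 4.05% of all 18014 genes, of which 1.13% rose and 2.92% fell. An unadjusted p under 0.05 was reached by 41 of the 108, against 20.8% of all genes. Their median difference was -0.23 on the log2 scale, against -0.08 over all genes, and 83 of the 108 lay below 0, against 60.1% of all genes. With quantile normalization 69 of the 108 lay below 0, against 8824 of all 18014 genes. The balance of the calls moved with the scaling, to 7 up and 5 down after quantile normalization (median -0.11) and 7 up and 7 down after cyclic loess (median -0.12). Over all genes the calls were 409 up and 309 down after quantile normalization, and 378 up and 328 down after cyclic loess. Of the 16 calls in the deposited scaling, 9 were kept with quantile normalization and 11 with cyclic loess. Of the same 16, 4 were kept without control 1, 5 without control 2 and 8 without control 3. Likewise 14 were kept without UCP1 array 1, 14 without UCP1 array 2 and 4 without UCP1 array 3. Crk, Pdpk1, Trib3 and Gys1 were called in each of these scalings and, in the deposited scaling, with each array left out. With quantile normalization and without UCP1 array 3, Crk and Pdpk1 were called and Trib3 and Gys1 were not (limma, adjusted p = 0.0547 and 0.0973). In a fit without the intensity trend 0 of all probes passed (limma), 4951 had an unadjusted p under 0.05, and the adjusted p of these 4 genes was 0.0543, 0.209, 0.209 and 0.209.

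**Figure D3:**
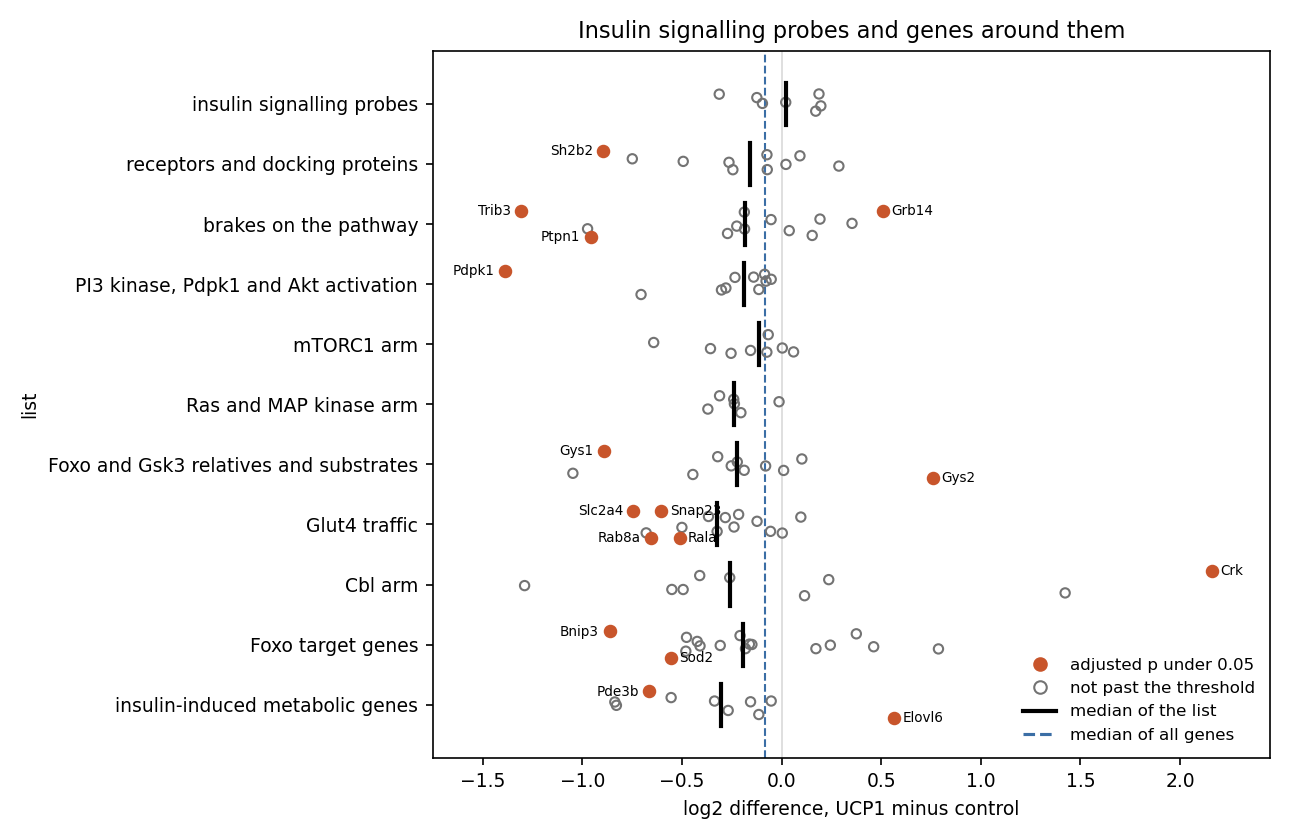
Log2 difference between UCP1 and control for the 7 member probes and for the measured genes of the 10 lists, with called genes filled and named; black bars are list medians and the dashed line is the median of all genes. The member probes centre on 0.02, and the Glut4 traffic list has the lowest median, at -0.32.

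Just upstream of Akt the kinase Pdpk1, which phosphorylates Akt in its activation loop, had the lowest difference of the pathway genes. It read 3.58, 3.02 and 2.40 in controls and 1.26, 1.27 and 0.903 in UCP1. Every UCP1 reading was below every control reading, a separation that 25.2% of all genes showed, and the fall was 2.61-fold, or 1.39 ± 0.191 in log2 units (SE; limma, adjusted p = 0.00393). It was the 1 of 10 measured genes of PI3 kinase and Akt activation that passed. All 10 lay below 0 (9 of 10 with quantile normalization), against 60.1% of all genes in the deposited scaling, and their median was -0.19.

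Among receptors and docking proteins, 1 of 10 passed. That was Sh2b2, an adaptor that binds the activated insulin receptor, which read 13.9, 11.4 and 9.80 in controls and 5.25, 8.24 and 5.59 in UCP1 and fell 1.86-fold (limma, adjusted p = 0.0234). The call was lost with both other scalings (adjusted p = 0.0682 and 0.0728) and without control 1, control 2 or UCP1 array 3.

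Among brakes on the pathway 1 of 13 measured genes rose and 2 fell, with a median of -0.19 that turned to 0.10 with quantile normalization and 0.05 with cyclic loess. Trib3, a pseudokinase that binds Akt, read 6.77, 6.86 and 9.10 in controls and 2.56, 3.71 and 2.94 in UCP1, and fell 2.47-fold (limma, adjusted p = 0.00214). Ptpn1, the phosphatase that removes phosphate from the insulin receptor, read 3.42, 2.96 and 2.20 in controls and 1.16, 1.84 and 1.43 in UCP1. It fell 1.94-fold (adjusted p = 0.031), a call that was lost with both other scalings and in 4 of the 6 fits with an array left out, all but those without control 3 and UCP1 array 2. Grb14, an adaptor that inhibits the receptor kinase, rose from 9.44, 8.28 and 9.74 to 13.3, 12.7 and 13.0, which is 1.42-fold (adjusted p = 0.0328). Its call held with both other scalings and was lost without any 1 of the controls or UCP1 array 3. The feedback inhibitor Socs3 was measured at -0.19 ± 0.148 (SE) and Grb10, a relative of Grb14, at 0.15 ± 0.171. Phlpp1, a phosphatase of Akt, was measured at 0.35 ± 0.106 (adjusted p = 0.1) and was called higher with quantile normalization, at 0.46, and with cyclic loess, at 0.44.

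On the Glut4 side 4 of 15 measured traffic genes fell and 0 rose, with a median of -0.32. Of these 15, 13 lay below 0, against 60.1% of all genes. Slc2a4, which encodes Glut4, read 12.8, 9.97 and 10.1 in controls and 5.95, 7.38 and 6.26 in UCP1. It fell 1.67-fold (limma, adjusted p = 0.0152), and its other probe was measured at -0.44 without passing. The call held with both other scalings and was lost without control 1 or UCP1 array 3. Rala, a small GTPase of vesicle targeting, fell 1.43-fold, Snap23, a fusion protein of the plasma membrane, 1.52-fold, and Rab8a, a substrate of Tbc1d4, 1.58-fold. These 3 calls were each lost without any 1 of the controls or without UCP1 array 3, that of Rab8a also without UCP1 array 1 and that of Rala also without UCP1 array 2. With quantile normalization Slc2a4 was the 1 that passed, and with cyclic loess Slc2a4 and Rala passed. Tbc1d1, the closest relative of Tbc1d4, was dim, read 0.877, 0.994 and 0.818 in controls and 0.431, 0.609 and 0.662 in UCP1, and was measured at -0.68 ± 0.232 (SE) without passing (adjusted p = 0.147). Rab10, the main Rab substrate of Tbc1d4 in adipocytes, was measured at -0.37 ± 0.113 (adjusted p = 0.108). A dimmer Rab10 probe was at -1.06 (limma, adjusted p = 0.0788), with UCP1 array 2 inside the control range.

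On the Gsk3 side the 2 glycogen synthases went opposite ways. Gys1, the form of muscle and fat, read 35.4, 31.1 and 32.9 in controls and 16.3, 20.6 and 16.8 in UCP1, and fell 1.86-fold (limma, adjusted p = 0.00445). Gys2, the liver form, read 3.98, 3.77 and 4.84 in controls and 8.95, 6.20 and 6.35 in UCP1, and rose 1.69-fold (adjusted p = 0.0285). The groups did not overlap at either gene, as at 25.2% of all genes. Both calls held with the 2 other scalings, while that of Gys2 was lost without control 1, control 2 or UCP1 array 3. Gsk3a, the kinase related to Gsk3b, was measured at -0.22 ± 0.146 (SE). These were the 2 calls among 11 measured relatives and substrates of Foxo and Gsk3.

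Of 16 measured genes known as Foxo targets 2 fell and 0 rose, with a median of -0.19. Bnip3, a mitophagy receptor that is also a hypoxia target, fell 1.82-fold and Sod2, the mitochondrial superoxide dismutase, 1.47-fold (limma, adjusted p = 0.031 and 0.0369). Both calls were lost with quantile normalization, that of Sod2 also with cyclic loess. Both were lost without any 1 of the controls or UCP1 array 3, and that of Bnip3 also without UCP1 array 2. Pck1, which makes glycerol phosphate precursors in adipocytes, was bright and read 178, 156 and 165 in controls and 235, 209 and 204 in UCP1. It did not pass in the deposited scaling, at 0.38 ± 0.160 (SE, adjusted p = 0.253), although every UCP1 reading was above every control. Groups that did not overlap, in either direction, were found at 25.2% of all genes. With quantile normalization Pck1 was called higher, at 0.62, as was Sesn3, a stress-induced regulator of mTORC1, at 0.47, and both were called with cyclic loess. In the deposited scaling Sesn3 was at 0.24 (limma, adjusted p = 0.469), and its dimmer probe was at 0.01 and not called. Igfbp1, G6pc and Pdk4, other classical Foxo targets, were measured at 0.46, 0.79 and -0.42 without passing.

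In the arm that runs through the ubiquitin ligase Cbl, Crk was the 1 of 9 measured genes that passed. This adaptor read 2.22, 2.17 and 2.20 in controls and 10.6, 9.59 and 9.32 in UCP1, a rise of 2.16 ± 0.113 (SE) on the log2 scale on the 1 probe it has (limma, adjusted p = 5.76e-06). Its partner Rapgef1 was dim and was measured at 1.42 ± 0.747, and Trip10 and Rhoq at -0.49 ± 0.137 and 0.12 ± 0.139. Of 10 measured metabolic genes that insulin induces or that act with it, the elongase Elovl6 rose 1.48-fold and Pde3b, the phosphodiesterase through which Akt restrains lipolysis, fell 1.58-fold (adjusted p = 0.0476 and 0.0289). Both calls held with the 2 other scalings and were lost without any 1 of the controls or UCP1 array 3. Hk2, the hexokinase of insulin-sensitive tissues, was measured at -0.55 ± 0.155 (adjusted p = 0.0817).

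The 2 growth arms gave no call (limma). In the mTORC1 arm 0 of 8 passed, 2 had an unadjusted p under 0.05, and the median was -0.11, which turned to 0.06 with quantile normalization and 0.05 with cyclic loess. Those 2 were Mtor, the kinase itself, at -0.36 ± 0.118 (SE, adjusted p = 0.133), and Akt1s1, its inhibitor and an Akt substrate, at -0.64 ± 0.235 (adjusted p = 0.176). In the Ras and MAP kinase arm 0 of 6 passed, with a median of -0.24. All 6 lay below 0 (5 of 6 with quantile normalization), against 60.1% of all genes in the deposited scaling. An unadjusted p under 0.05 was reached by 2, the kinase Braf, at -0.37 ± 0.114 (adjusted p = 0.11), and the small GTPase Nras, at -0.31 ± 0.12 (adjusted p = 0.202). A dimmer probe of Braf was at -0.68 (limma, adjusted p = 0.0526). Its groups did not overlap, as at 21.9% of all probes. Eif4ebp1, the translation repressor that mTORC1 phosphorylates, was measured at -0.07 ± 0.18.

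**Figure D4:**
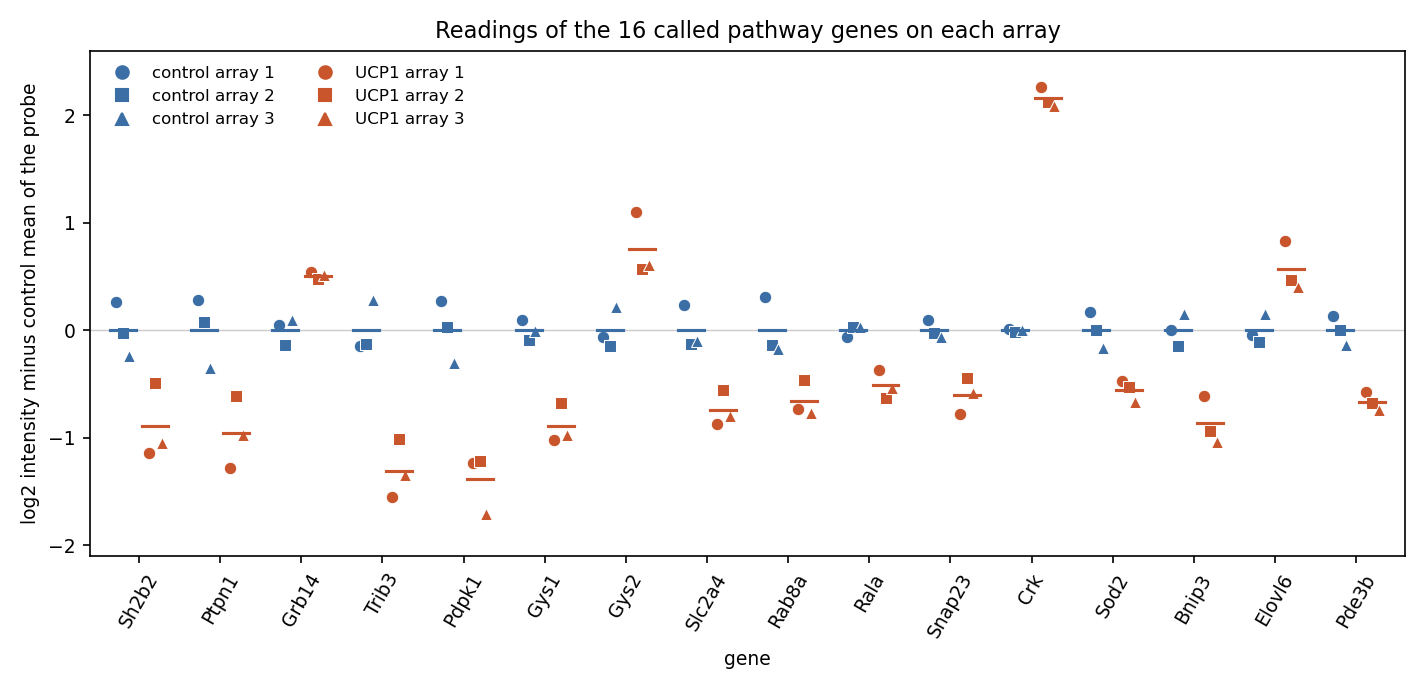
Log2 intensity of the 16 called pathway genes on each array, minus the mean of that probe over the 3 control arrays; bars mark group means (n = 3). Crk, Grb14, Gys2 and Elovl6 are higher on all 3 UCP1 arrays and the other 12 genes are lower on all 3.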

How the data were processed

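The authors deposited 1 intensity per probe and array, on a linear scale and per the values set to nearly equal array medians. No header or label names the scanner software, background correction or scaling. Values of -9999 were treated as missing. Intensities were turned to log2 after those at or below 0 (80 to 159 per array) had been raised to the lowest positive reading on that array. UCP1 and control arrays, grouped by the source field of the labels, were compared in R 4.3.3 with limma 3.58.1 (lmFit, then eBayes with an intensity trend; two-sided; Benjamini-Hochberg over the 36116 probes with at least 2 values per group; threshold 0.05). Intervals are 95% intervals of that fit, and its code was tested on simulated data. With 3 arrays per group, their number limits the precision.

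Of all probes, 21615 had 1 gene symbol, 681 several and 13931 none. A listed gene was read on the brightest of its probes, by mean log2 value. Every member probe was named. From each list the text names the called genes, up to 6, or the 2 with the smallest p, and further genes were picked with their values in view. The members and lists were chosen with earlier results of these data known. Another gene planned for the lists is not reported here. Planned tests of Akt1 against Akt2 and of Irs1 against Irs2 were not run, since Akt2 and Irs2 had no probe of their own. The alternatives were an offset of 0.125 before log2, quantile and cyclic loess normalization, no intensity trend, brighter probes alone, array weights, a replicate block and each array left out. Quantile normalization with UCP1 array 1 or 3 left out was added after seeing the data.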

Additional observations from a re-analysis of the deposited data

How the results depend on the processing

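No member probe was called under the offset, without the intensity trend, with brighter probes alone, with array weights, with the replicate block or with any 1 array left out. With quantile normalization 1 was called (Pik3r1 348077, 0.47), and 1 also without UCP1 array 1 (0.43). With cyclic loess 2 were called, Pik3r1 348077 at 0.41 and Irs1 at 0.42. Over all probes, 1013 of 36116 were called with quantile normalization and 979 of 36062 with cyclic loess. With quantile normalization without UCP1 array 1, 772 of 36102 were called. Foxo1 turned positive, at 0.059 with quantile normalization, 0.066 with cyclic loess, and 0.17 and 0.024 with quantile normalization without UCP1 array 1 or 3. Insr 150009 was at 0.0096 with quantile normalization without UCP1 array 3. With each array left out in turn, Insr 38020 ran from -0.014 to 0.51, Insr 150009 from -0.24 to 0.0063 and Akt1 from -0.059 to 0.11.

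Of all probes, 1021 were called, against 0 without the intensity trend (4951 at an unadjusted p under 0.05, limma), 2239 with brighter probes alone, 2135 with these and no trend, 1811 with array weights, 270 with quantile normalization without UCP1 array 3, and 159 to 1894 with each array left out. Of 108 pathway genes 16 were called, against 0 without the trend, 10 with quantile normalization without UCP1 array 1 and 3 without UCP1 array 3, and 4 to 22 with each array left out. Over all alternatives 0 of the 16 called pathway genes reversed. The replicate block left 776 probes and 10 pathway genes called. The labels give no pairing beyond the number, and deviations of same-numbered arrays correlated at -0.24, -0.01 and 0.10, against -0.36 to 0.35 for the other pairs, so they were not treated as paired. Apart from the fits with fewer arrays, the cause of these shifts was not tested. The paralog comparisons, and the mean over probes planned for them, were not run.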
